A study of Mus musculus with 16 samples.

Results

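Creatine kinases and the genes that supply creatine were examined in the left (LA) and right (RA) atrium of the mouse heart. The set holds 7 genes chosen by name: the mitochondrial creatine kinases Ckmt2 and Ckmt1, the cytosolic creatine kinases Ckm and Ckb, the synthesis enzymes Gatm and Gamt, and the transporter Slc6a8. All array probes that the platform annotation assigns to them were taken, which gave 8 probes, with 2 for Ckmt2 and 1 for each of the other genes, out of 25697 probes and 16593 named genes on the array. The genes were picked with the differences between LA and RA in these arrays already known, so these differences are given below as a description with their errors. Counts of members that meet a criterion only place them among all probes and are no test of these genes.

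Expression was measured in total RNA on Illumina MouseRef-8 v2.0 bead arrays, whose probes are short oligonucleotides. LA and RA tissue of 4 MF1 mice (dataset MF1_12) and 4 Swiss Agouti mice (dataset SA_12) was hybridised, with 4 arrays for each side of each dataset and 16 arrays in all. All animals were untreated wild-type mice of outbred strains with an age of 12 months per the labels, and no samples were pooled. The study lists the MF1 animals as male and the Swiss Agouti animals as female, and the effects of strain and sex therefore cannot be told apart here. One passage of its methods gives the Swiss Agouti animals a younger age than the labels do, so that a difference in age between the datasets cannot be told apart from these either. The deposited values are log2 values relative to a baseline of each probe, so that 0 marks the probe's own middle and not a lack of transcript. They hold no absolute level: one gene cannot be ranked above another, the arrays give no detection limit here, and only differences between the sides and the differences of these differences were read.

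Creatine kinase moves a phosphate group between ATP and creatine. In heart muscle the mitochondrial enzyme charges creatine at the place where ATP is made, and cytosolic enzymes at the myofibrils and membranes use the resulting phosphocreatine to restore ATP where it is spent. Creatine itself is made from arginine and glycine by Gatm and then methylated by Gamt, mainly in kidney and liver, and cardiomyocytes take it up from blood through Slc6a8. Ckmt2 is known as the sarcomeric mitochondrial form of heart and skeletal muscle. Ckmt1 is known as the ubiquitous mitochondrial form, found in brain, gut and other epithelia and in other tissues.

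The probes of the mitochondrial isoforms had side differences of opposite sign. Ckmt2 was higher in LA and Ckmt1 was higher in RA, in both datasets. The probes of Ckm, Ckb, Gatm, Gamt and Slc6a8 differed by at most 0.19 on the log2 scale between LA and RA, and their arrays overlapped between the sides in both datasets.

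To show the DNA in front of both mitochondrial genes, the 250 bases before each annotated transcription start were taken from RefSeq on mouse assembly GRCm38.p6, written 5′ to 3′ along the strand of the gene. Of the 7 genes 6 were matched by symbol, with 7 starts, since Ckmt1 has 2 of them, and Slc6a8 is not shown. Both strands were searched for the E-box bound by basic helix-loop-helix factors, spelled CANNTG. The half-site of the estrogen-related receptors was spelled AAGGTCA. The TATA box was searched as TATAAA, and the CCAAT box by its own letters. The site of MEF2 factors was searched as CTA, any 4 bases and then TAG, and can hold a TATA box within it. Capitals mark the matches in these sequences.
Ckmt2 (chr13:91876886-91877135, minus strand): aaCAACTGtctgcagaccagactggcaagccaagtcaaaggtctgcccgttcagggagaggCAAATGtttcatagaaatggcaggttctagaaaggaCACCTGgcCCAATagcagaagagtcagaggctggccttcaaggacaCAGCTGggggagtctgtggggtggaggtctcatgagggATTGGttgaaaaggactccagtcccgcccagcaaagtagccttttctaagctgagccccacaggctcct
Ckmt1, start 1 (chr2:121357526-121357775, plus strand): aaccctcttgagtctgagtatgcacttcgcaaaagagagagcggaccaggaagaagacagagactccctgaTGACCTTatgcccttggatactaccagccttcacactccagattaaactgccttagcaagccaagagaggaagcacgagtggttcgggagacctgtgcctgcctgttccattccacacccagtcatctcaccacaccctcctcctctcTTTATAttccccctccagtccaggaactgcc
Ckmt1, start 2 (chr2:121358360-121358609, plus strand): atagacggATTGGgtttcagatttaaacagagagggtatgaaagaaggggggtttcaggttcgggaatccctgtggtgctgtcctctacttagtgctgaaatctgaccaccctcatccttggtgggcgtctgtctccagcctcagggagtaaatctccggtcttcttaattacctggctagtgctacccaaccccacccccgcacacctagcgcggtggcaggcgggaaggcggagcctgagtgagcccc
The Ckmt2 sequence held 4 E-boxes, with their first bases 248, 189, 153 and 107 bases before the start, and 2 CCAAT boxes. Neither Ckmt1 sequence held an E-box. The first one held 1 estrogen-related receptor half-site (179 to 173 bases before the start) and 1 TATA box (31 to 26 bases before the start), both read on the opposite strand, and the second one held 1 CCAAT box. In the same window of the other genes, Ckb was the only one with a MEF2 site, which lay over its TATA box, and Ckm and Gatm each had 1 E-box. Of 32851 promoter windows of this length 66.2% held an E-box, 3.2% a MEF2 site, 4.08% the half-site, 12.4% the TATA box and 33.8% a CCAAT box. These matches are letters in a sequence, and no binding was measured.

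Ckmt2 was measured by 2 probes. On the first, ILMN_2698052, the 4 MF1_12 LA arrays (in the order of their replicate numbers, as in all lists of values) had 0.36, 0, 0.16 and 0 log2 units, against 0.05, -0.59, -0.24 and -0.65 in MF1_12 RA. RA replicate 1 lay above 2 of the LA arrays, so that the sides overlapped. The means were 0.13 ± 0.17 in LA and -0.36 ± 0.33 in RA (SD, n = 4 each), a difference of 0.49 (SE 0.16), which is 1.40-fold higher in LA. In SA_12 the same probe had 0.79, 0.58, 0.49 and 0.33 in LA, against -0.95, -0.39, -0.67 and -0.57 in RA. Here all LA arrays lay above all RA arrays. The means were 0.55 ± 0.19 in LA and -0.64 ± 0.23 in RA, and the difference of 1.19 (SE 0.12) was 2.28-fold.

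The second Ckmt2 probe, ILMN_2817864, gave nearly the same picture. Its MF1_12 values were 0.49, -0.0045, 0.32 and 0.19 in LA, against 0.0045, -0.62, -0.32 and -0.55 in RA, with an overlap of only LA replicate 2 and RA replicate 1. The difference was 0.62 (SE 0.15), 1.54-fold higher in LA. In SA_12 the 4 LA arrays stood close together at 0.47, 0.37, 0.44 and 0.39, against -1.08, -0.70, -0.70 and -0.66 in RA. The gap between the sides was wider than the range of either side. The difference was 1.20 (SE 0.09), or 2.30-fold. On no array did the 2 probes differ by more than 0.32, with a median of 0.098, and their Pearson correlation over 16 arrays was 0.975 after removing the mean of each dataset. That value includes the side difference that both probes share. By size of the side difference without regard to sign, the Ckmt2 probes ranked 637 and 383 among all probes in MF1_12, and 45 and 44 in SA_12.

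Ckmt1 ran the other way. Its probe ILMN_2773537 had -0.57, -0.50, -0.09 and -0.41 in MF1_12 LA, against 0.38, 0.02, 0.55 and 0.92 in MF1_12 RA. All LA arrays lay below all RA arrays. The means were -0.39 ± 0.21 in LA and 0.47 ± 0.37 in RA (SD, n = 4 each), and the difference of -0.86 (SE 0.18) stood for a level 1.81-fold higher in RA. In SA_12 the values were -0.57, -0.35, -0.08 and -0.04 in LA, against 0.12, 0.34, 0.99 and 0.20 in RA. The sides again did not overlap, although LA replicate 4 and RA replicate 1 were only a short way apart. The difference was -0.67 (SE 0.18), 1.59-fold higher in RA, with means of -0.26 ± 0.25 in LA and 0.41 ± 0.39 in RA. The Ckmt1 probe ranked 187 by size in MF1_12 and 161 in SA_12. The spread of Ckmt1 among RA arrays was the widest of the 8 probes in both datasets.

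**Figure D1:**
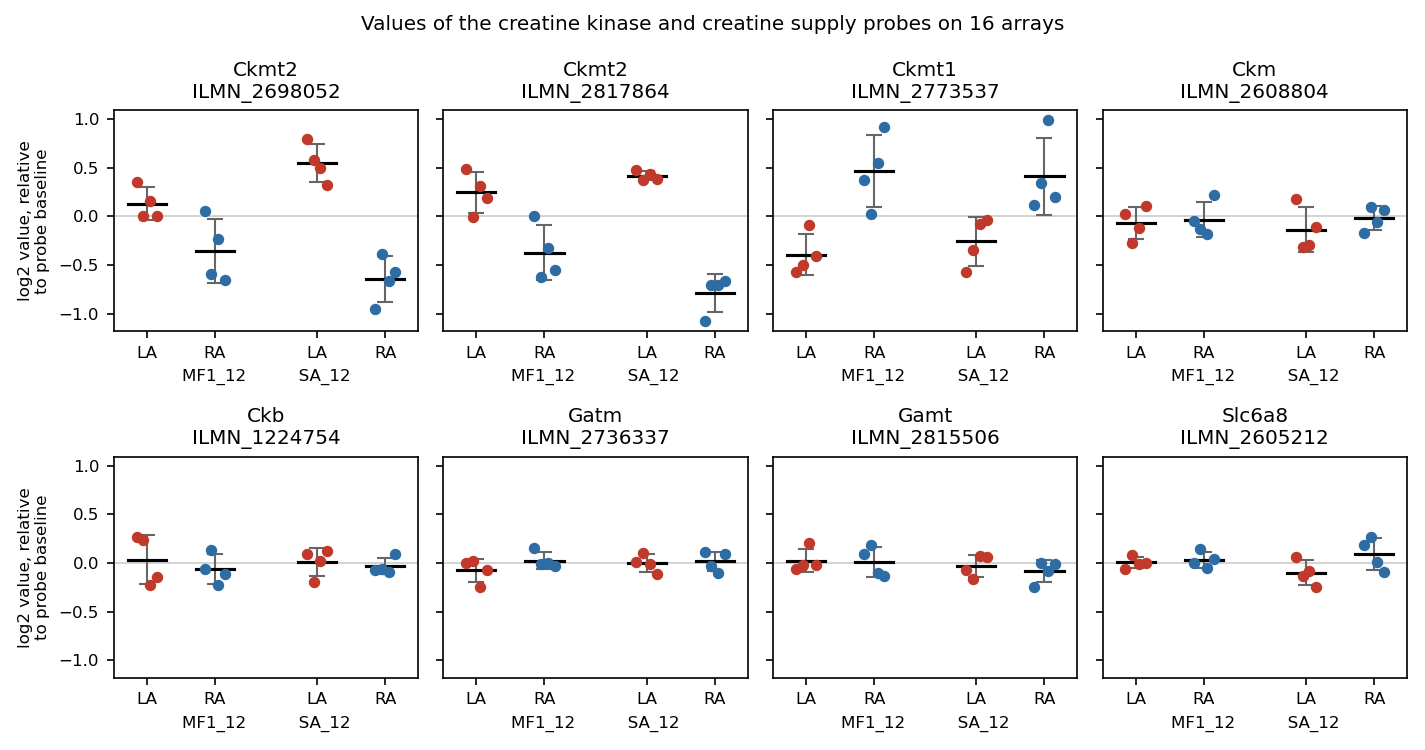
Log2 values relative to the probe baseline (y axis) of the 8 probes on 16 arrays, 1 panel a probe, with LA (red) left of RA (blue) in MF1_12 and SA_12. Points are arrays, black lines are means and bars are SD (n = 4). The Ckmt2 arrays of SA_12 and the Ckmt1 arrays of both datasets fall into separate ranges for LA and RA, and the arrays of the other 5 genes overlap.

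The cytosolic enzymes showed no such split. Ckm encodes the muscle form that binds the M-band of the sarcomere. Its values were 0.03, -0.27, -0.12 and 0.10 in MF1_12 LA, against -0.04, -0.13, -0.18 and 0.22 in MF1_12 RA, and 0.18, -0.32, -0.29 and -0.11 in SA_12 LA, against -0.17, 0.10, -0.06 and 0.06 in SA_12 RA. The difference was -0.03 (SE 0.11) in MF1_12 and -0.12 (SE 0.11) in SA_12. As a ratio of LA to RA, its 95% interval ran over 0.83 to 1.16 in MF1_12 and 0.78 to 1.09 in SA_12, so that a difference in Ckm of the size of Ckmt2 in SA_12 lies outside these bounds. Ckb, the brain-type form that the heart also carries, differed by 0.10 (SE 0.13) in MF1_12 and 0.04 (SE 0.07) in SA_12. Its interval was 0.88 to 1.31 in MF1_12 and 0.92 to 1.16 in SA_12. MF1_12 LA held both a high and a low pair of Ckb arrays, with 0.26 and 0.23 in replicates 1 and 2 against -0.23 and -0.14 in replicates 3 and 4.

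The genes of creatine synthesis were close to even. Gatm, which makes the precursor guanidinoacetate, ranged over -0.24 to 0.02 in MF1_12 LA and -0.04 to 0.15 in MF1_12 RA. The differences of LA minus RA were -0.10 (SE 0.07) in MF1_12 and -0.02 (SE 0.06) in SA_12, with intervals of 0.84 to 1.04 and 0.89 to 1.09 as a ratio of LA to RA. Gamt, which adds the methyl group, had a difference of 0.01 (SE 0.09) in MF1_12 and 0.06 (SE 0.07) in SA_12, with intervals of 0.88 to 1.16 and 0.93 to 1.17. Gamt ranged over -0.06 to 0.20 in MF1_12 LA and -0.13 to 0.19 in MF1_12 RA, and over -0.16 to 0.07 in SA_12 LA and -0.25 to 0.00075 in SA_12 RA. Since the values are relative, they do not say whether either synthesis enzyme was detected in atrial tissue.

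In MF1_12 Gatm had the largest side difference of the supply genes, at -0.10. In SA_12 the largest was that of Slc6a8, the creatine transporter of the cell membrane. Its SA_12 values were 0.07, -0.13, -0.08 and -0.25 in LA, against 0.18, 0.27, 0.01 and -0.09 in RA. The ranges overlapped, and the difference was -0.19 (SE 0.09), with an interval of 0.76 to 1.01 for the ratio of LA to RA. In MF1_12 the Slc6a8 difference was -0.03 (SE 0.06), with an interval of 0.90 to 1.07.

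**Figure D2:**
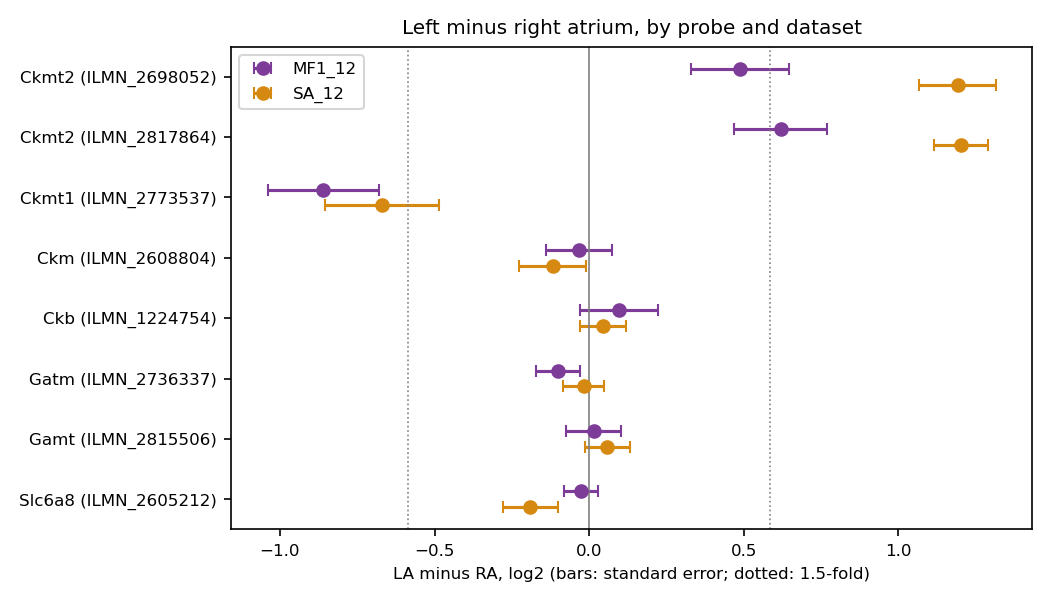
Difference of LA minus RA on the log2 scale (x axis) of each probe (rows) in MF1_12 (purple) and SA_12 (orange). Points are differences of the means of 4 arrays a side, bars are standard errors, and dotted lines mark a fold of 1.5. Both Ckmt2 probes lie to the right and Ckmt1 to the left of 0 in both datasets, and the other 5 probes lie between -0.19 and 0.10.

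The thresholds of the study's methods (a fold above 1.5 with an adjusted p under 0.05) were applied here to a limma fit without a block. This criterion was met by 0 of the 8 probes in MF1_12, where 0.790% of all probes met it, and by 2 of 8 in SA_12, where 0.630% did. Both were Ckmt2 probes higher in LA, and 0.288% of all probes met the criterion in that direction. These calls are not those of the study, whose own analysis lists Ckmt2 as enriched in LA and Ckmt1 in RA in all its datasets. At an unadjusted p under 0.05, with no regard to the fold, there were 3 of 8 in MF1_12 (Ckmt1 and both Ckmt2 probes), against 10.9% of all probes. The same 3 of 8 had such a p in SA_12, against 12.6% of all probes. The arrays of LA and RA did not overlap for 1 of 8 probes in MF1_12 (Ckmt1, with LA below RA, where 3.77% of all probes were in that direction and 6.99% in either) and for 3 of 8 in SA_12 (Ckmt1 with LA below RA, where 3.71% of all probes were, and both Ckmt2 probes with LA above RA, where 3.46% were, and 7.17% in either). Ckmt1 was the single member whose sides were apart in the same direction in both datasets, as 1.36% of all probes were. The median size of the side difference, without its sign, was 0.10 over the 8 probes against 0.06 over all probes in MF1_12, and 0.15 against 0.05 in SA_12. Nothing can be read from these shares about the set, because the genes were chosen with this comparison known.

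In MF1_12, the deviations of arrays from the means of their groups ran together between the sides for equal replicate numbers. Within such a pair the Ckmt1 difference was -0.94, -0.53, -0.64 and -1.33 in MF1_12 and that of Ckmt2 was 0.31, 0.59, 0.39 and 0.65 on ILMN_2698052 and 0.49, 0.62, 0.64 and 0.74 on ILMN_2817864. All 4 pairs thus had more Ckmt2 and less Ckmt1 signal in LA than in RA. With the replicate number as a block, Ckmt1 and ILMN_2817864 met the criterion, that is 2 of 8 probes in place of 0, and 1.14% of all probes in place of 0.790%. In SA_12 the deviations of same-numbered arrays did not run together, so that no pairing was seen there. This does not show whether equal numbers stand for the same animal.

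The opposite directions of the isoforms were summed up as the Ckmt2 value (mean of its 2 probes) minus the Ckmt1 value of the same array. This balance is relative, as each gene is set against its own baseline, and does not give the ratio of the transcripts. It was 0.99, 0.50, 0.33 and 0.50 in MF1_12 LA, against -0.35, -0.63, -0.83 and -1.52 in MF1_12 RA, and 1.20, 0.82, 0.54 and 0.39 in SA_12 LA, against -1.13, -0.89, -1.67 and -0.82 in SA_12 RA. Every LA array was above 0 and every RA array below it. The means were 0.58 ± 0.29 in LA and -0.83 ± 0.50 in RA in MF1_12, and 0.74 ± 0.36 in LA and -1.13 ± 0.39 in RA in SA_12 (SD, n = 4 each). The balance shifted by 1.41 between the sides in MF1_12 (2.66-fold) and by 1.87 in SA_12 (3.65-fold). In MF1_12 the larger part of this shift came from Ckmt1, and in SA_12 from Ckmt2.

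**Figure D3:**
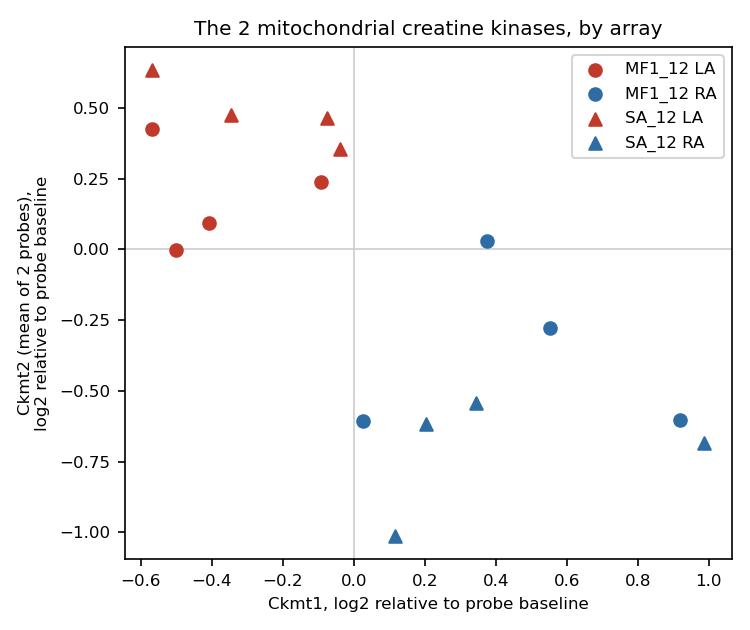
Ckmt2 (y axis, mean of its 2 probes) against Ckmt1 (x axis) on each of 16 arrays, both as log2 values relative to the probe baseline. Circles are MF1_12, triangles SA_12, red LA and blue RA. All LA arrays lie left and all RA arrays right of a Ckmt1 value of 0. Ckmt2 separates the sides in SA_12, and in MF1_12 RA replicate 1 lies above LA replicate 2.

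Whether the side difference itself differed between the datasets was tested on all 16 arrays in limma, as the difference of MF1_12 minus the difference of SA_12. For Ckmt2 it was -0.70 (SE 0.22) on ILMN_2698052 and -0.58 (SE 0.18) on ILMN_2817864, a ratio of the folds of 1.63 and 1.5, and neither was significant over all probes (adjusted p = 0.428 and 0.444). Without adjustment, 2 of 8 probes had a p under 0.05, both of Ckmt2, against 7.37% of all probes. For Ckmt1 the difference between datasets was -0.19 (SE 0.28, adjusted p = 0.917). Those of the other 5 probes were -0.08 for Gatm, -0.04 for Gamt, 0.05 for Ckb, 0.09 for Ckm and 0.16 (SE 0.11) for Slc6a8, with adjusted p of 0.796 or more. By the criterion 0 of 8 probes passed, and 0.00778% of all probes did. A separate response of the datasets was therefore not detectable for any of the 7 genes, and with 4 arrays a group the Ckmt2 estimates remain wide.

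Genes that act beside creatine kinase were taken as 5 lists with 88 genes, of which 79 had probes, 119 in all. In MF1_12 2 of the 119 probes met the criterion (1.68%, against 0.790% of all probes), both higher in LA, and in SA_12 0 of 119 did in limma. At an unadjusted p under 0.05 there were 14 of 119 in MF1_12, where 10.9% of all probes had such a p, and 21 of 119 in SA_12, where 12.6% had. Precursor and methyl supply (18 genes, 27 probes, such as the methionine cycle gene Ahcy and the arginases Arg1 and Arg2) had 0 passing probes and medians of -0.0011 in MF1_12 and 0.0044 in SA_12. Ahcy, which clears the by-product of methyl transfer, differed by -0.09 (SE 0.11) in MF1_12 and 0.04 (SE 0.06) in SA_12.

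The other phosphotransfer enzymes (18 genes, 27 probes: adenylate kinases, nucleoside diphosphate kinases, AMP deaminases and AMP kinase subunits) had medians of 0.05 in MF1_12 and 0.07 in SA_12, against medians near 0 over all probes, and 0 passing probes in either. Prkab2, a regulatory subunit of AMP kinase, had the largest difference of that list in MF1_12, 0.56 (SE 0.13, adjusted p = 0.0789), with all LA arrays above all RA arrays, and 0.09 (SE 0.05) in SA_12. Ak1, the cytosolic adenylate kinase of muscle, differed by 0.18 (SE 0.19) in MF1_12 and -0.03 (SE 0.14) in SA_12. The mitochondrial partners (15 genes, 21 probes), which pass ATP and phosphate through the membranes beside Ckmt2, had medians of 0.03 in MF1_12 and 0.09 in SA_12 and 0 passing probes. Among them the ADP/ATP carrier Slc25a5 differed by 0.17 (SE 0.12) in MF1_12 and -0.02 (SE 0.07) in SA_12, and the outer membrane channel Vdac1 by -0.06 (SE 0.14) in MF1_12 and 0.10 (SE 0.07) in SA_12. In SA_12 the largest differences of these 2 lists, 0.43 and 0.40, stayed below the 1.19 and 1.20 of the Ckmt2 probes, all on the log2 scale. In MF1_12 Prkab2 was as far apart as Ckmt2, whose probes differed by 0.49 and 0.62 with overlapping arrays.

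The M-band and glycolytic neighbours of Ckm (13 genes, 19 probes) had medians of 0.05 in MF1_12 and -0.04 in SA_12. Pgam2, the muscle phosphoglycerate mutase, had 0.57 (SE 0.15, adjusted p = 0.152) in MF1_12 and 0.17 (SE 0.12) in SA_12. Aldoa, the muscle aldolase, was the one probe of this list with an adjusted p under 0.05, at -0.31 (SE 0.06, adjusted p = 0.0299) in SA_12, and its 1.24-fold change stayed below the fold asked for. In MF1_12 Aldoa was at -0.01 (SE 0.07).

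The list of regulators of mitochondrial and muscle genes (15 genes, 25 probes) held both probes that passed. Mef2c encodes a MEF2 factor of muscle gene transcription. Its probe ILMN_2732465 had 0.56, 0.54, 0.29 and 0.59 in MF1_12 LA, against -0.32, -0.10, -0.06 and -0.28 in MF1_12 RA, with no overlap. The difference was 0.69 (SE 0.09, 1.61-fold, adjusted p = 0.00718). In SA_12 the same probe had 0.28 (SE 0.24, adjusted p = 0.739) with overlapping arrays. Another Mef2c probe, ILMN_2887992, had 0.55 (SE 0.09, adjusted p = 0.0191) in MF1_12, just under the fold asked for, and the third, ILMN_1214950, only 0.09 (SE 0.05).

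Myocd encodes myocardin, a coactivator of serum response factor in cardiac and smooth muscle. Its probe ILMN_3151642 had 0.33, 0.35, 0.42 and 0.27 in MF1_12 LA, against -0.45, -0.05, -0.15 and -0.35 in MF1_12 RA, a difference of 0.59 (SE 0.09, 1.51-fold, adjusted p = 0.0165) with no overlap. In SA_12 the difference was 0.30 (SE 0.18, adjusted p = 0.567). The other 2 Myocd probes did not share it in MF1_12, with -0.07 (SE 0.09) on ILMN_1218766 and 0.01 (SE 0.06) on ILMN_3072880. Leaving out any single one of 4 arrays of MF1_12 (replicates 1 and 3 of LA, replicates 1 and 4 of RA) ended the call of the Myocd probe, a Mef2c probe met it without any 1 array, and no probe of either gene met it with ordinary variance or in the fit of all 16 arrays. Of the coactivators of mitochondrial biogenesis, Ppargc1a had 0.21 (SE 0.13) in MF1_12 and 0.11 (SE 0.21) in SA_12, and Ppargc1b 0.41 (SE 0.10, adjusted p = 0.0992) in MF1_12 and 0.25 (SE 0.24) in SA_12. The estrogen-related receptor Esrra, whose half-site was searched for above, differed by 0.05 (SE 0.08) in MF1_12 and 0.04 (SE 0.05) in SA_12.

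**Figure D4:**
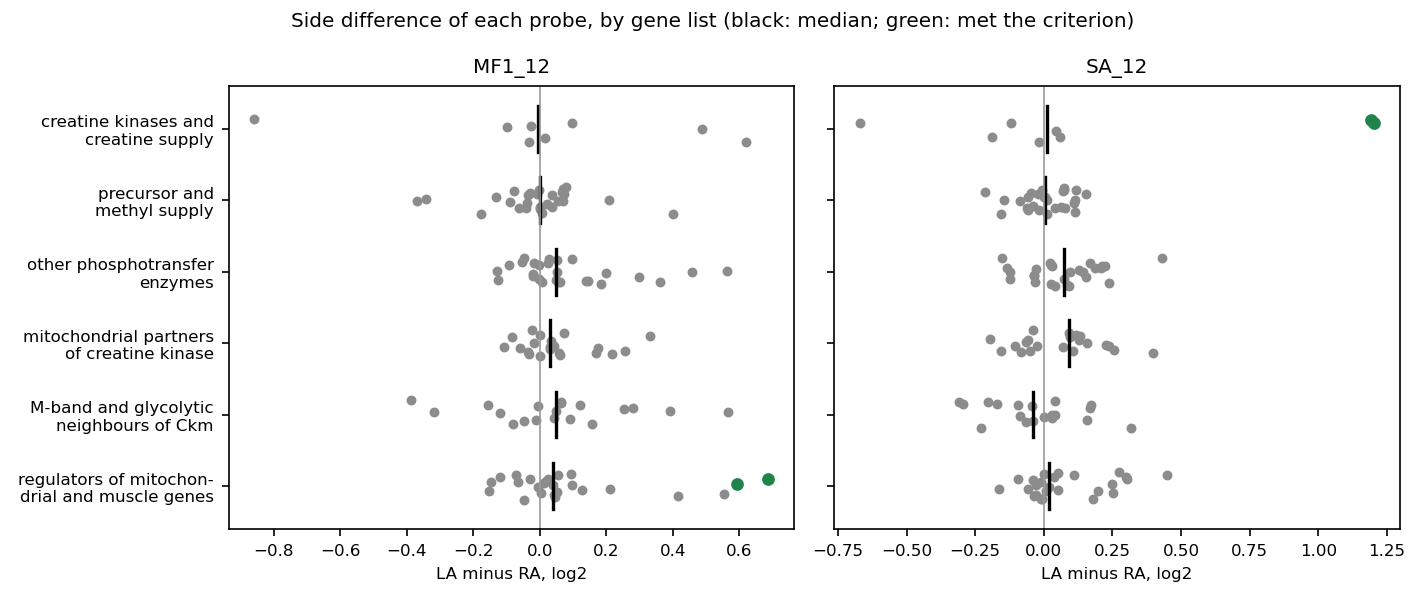
Difference of LA minus RA on the log2 scale (x axis) of every probe of the creatine set and the 5 lists (rows) in MF1_12 and SA_12, whose panels have different scales. Points are probes, black bars are list medians, and green points met the criterion. The Ckmt2 probes of SA_12 and the Mef2c and Myocd probes of MF1_12 are the only green points, and each list median lies between -0.04 and 0.09.

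The labels of side were checked with Bmp10, a growth factor of the right atrium, which was 4.23-fold higher in RA of MF1_12 and 12.5-fold higher in RA of SA_12, with no overlap. Markers of 10 cell types were followed on each array as list means of log2 values, which describe content only in relative terms, and in tissue RNA fewer cells of a type and less RNA per cell cannot be told apart. The list mean of atrial cardiomyocytes (11 probes) overlapped between LA and RA, with -0.09 to 0.13 in MF1_12 LA against -0.19 to 0.03 in MF1_12 RA, and -0.03 to 0.09 in SA_12 LA against -0.08 to 0.10 in SA_12 RA. These means averaged over probes that went opposite ways, with differences of -0.25 to 0.64 in MF1_12 and -0.27 to 0.29 in SA_12. At an unadjusted p under 0.05, 2 of 11 were higher in LA in MF1_12, against 10.9% of all probes. In SA_12 2 were higher in LA and 3 in RA, against 12.6%. The arrays of 2 of 11 probes in MF1_12 and 3 of 11 in SA_12 did not overlap, against 6.99% and 7.17% of all probes. Smooth muscle markers (11 probes) overlapped too, with -0.03 to 0.15 in MF1_12 LA against -0.23 to 0.21 in MF1_12 RA and -0.15 to 0.86 in SA_12 LA against -0.23 to 0.06 in SA_12 RA, as did fat cell markers (8 probes) in both datasets, and 0 probes of these 3 lists passed. Still, 10 of the 11 smooth muscle probes were higher in LA in each dataset, with median differences of 0.10 in MF1_12 and 0.35 in SA_12. At an unadjusted p under 0.05 there were 2 of 11 in SA_12, both higher in LA, against 12.6% of all probes. In MF1_12 there were 0 of 11, against 10.9%. The part of smooth muscle in the Ckmt2 difference was not tested.

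Some marker lists were higher in RA, as Ckmt1 was, in part of the comparisons. Endothelial markers (7 probes) averaged -0.13 to -0.03 in MF1_12 LA against 0.12 to 0.22 in MF1_12 RA, and -0.16 to -0.01 in SA_12 LA against 0.07 to 0.28 in SA_12 RA. Of these 1 of 7 probes passed in MF1_12 (Pecam1, higher in RA) and 0 of 7 in SA_12. At an unadjusted p under 0.05 there were 4 of 7 in MF1_12 and 2 of 7 in SA_12, all higher in RA. Over all probes, 10.9% in MF1_12 and 12.6% in SA_12 had such a p, which holds for the lists below as well. The endothelial probes did not all share this direction. In MF1_12 3 of 7 were higher in LA, by up to 0.18, and the median difference was -0.51. In SA_12 1 of 7 was higher in LA, and the median was -0.18. Markers of epicardium and mesothelium (11 probes) averaged -0.38 to -0.17 in MF1_12 LA against 0.06 to 0.35 in MF1_12 RA, where 4 of 11 passed (3 probes of Upk3b and 1 of Wt1). In SA_12 they overlapped, with -0.17 to 0.10 in LA against -0.10 to 0.40 in RA, and 0 of 11 passed. At an unadjusted p under 0.05 there were 8 of 11 in MF1_12 and 3 of 11 in SA_12, all higher in RA. Markers of neurons and glia (10 probes) lay at -0.15 to -0.04 in MF1_12 LA against 0.04 to 0.15 in MF1_12 RA, and at -0.09 to 0.01 in SA_12 LA against 0.03 to 0.12 in SA_12 RA. In each dataset 1 of these 10 passed, Dbh, at 5.39-fold in MF1_12 and 2.86-fold in SA_12 in favour of RA. The other 9 probes lay on both sides of 0 with overlapping arrays, and the median of the 10 differences was -0.0030 in MF1_12 and 0.0012 in SA_12, so that the lower list mean in LA came from Dbh. Sinus node markers (13 probes) ran over -0.10 to -0.02 in MF1_12 LA against -0.04 to 0.15 in MF1_12 RA, which overlapped, and -0.10 to -0.05 in SA_12 LA against -0.0033 to 0.13 in SA_12 RA, and 0 passed, while 3 of 13 in MF1_12 and 5 of 13 in SA_12 had an unadjusted p under 0.05. Macrophage markers (4 probes) ran over -0.32 to 0.56 in MF1_12 LA against 0.19 to 0.26 in MF1_12 RA, where the highest array was one of LA, and -0.40 to -0.07 in SA_12 LA against 0.02 to 0.31 in SA_12 RA, with 0 passing and 1 of 4 and 3 of 4 at an unadjusted p under 0.05 in MF1_12 and SA_12. Apart from the list led by Dbh, the mean of the endothelial list had, like Ckmt1, all LA arrays below all RA arrays in both datasets. The mean of the epicardial list did so in MF1_12 only, and those of the sinus node and macrophage lists in SA_12 only. The part of these cells in the Ckmt1 difference was not tested.

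Skeletal muscle markers (11 probes) averaged 0.09 to 0.56 in MF1_12 LA against -0.16 to 0.05 in MF1_12 RA, and 0.10 to 0.32 in SA_12 LA against -0.05 to 0.08 in SA_12 RA. The higher list mean in LA came from few probes, as the median of the 11 differences was 0.03 in MF1_12 and 0.01 in SA_12. In MF1_12 Acta1 differed by 3.53 and Tnni2 by 1.38, and Pvalb by -0.89, and 0 of 11 passed. At an unadjusted p under 0.05 there were 4 of 11 in MF1_12 (3 higher in LA, 1 in RA), against 10.9% of all probes. In SA_12 there were 2 of 11, both higher in LA, against 12.6%. In SA_12 the differences were 0.94 for Acta1, 1.22 for Tnni2 and -0.53 for Pvalb, and 1 of 11 passed, Tnni2 at 2.33-fold in favour of LA. The part of such fibres in the Ckmt2 difference was not tested.

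Ventricular markers (5 probes) ran opposite to Ckmt2 in SA_12, with -0.21 to 0.06 in LA against 0.04 to 1.34 in RA, which came from Myl2, the ventricular myosin light chain. Myl2 had -0.40, -0.75, -0.46 and -0.83 in SA_12 LA against 0.45, 4.38, 4.10 and 5.62 in SA_12 RA, and -0.21, -0.42, -0.65 and -0.58 in MF1_12 LA against -0.63, 1.53, 0.44 and 1.14 in MF1_12 RA. In both datasets RA replicate 1 had the least Myl2 of the RA arrays. That array had the lowest Ckmt2 values of RA in SA_12, -0.95 and -1.08, and the highest of RA in MF1_12, 0.05 and 0.0045. The part of ventricular tissue in the Ckmt2 difference was not tested. In MF1_12 the ventricular list ran over -0.15 to 0.17 in LA against -0.35 to 0.16 in RA, and 0 of 5 probes passed. These list means averaged over probes that went opposite ways. The 5 differences of LA minus RA ran from -1.08 to 1.36 with a median of -0.09, and 2 of them were above 0. Before adjustment, 1 probe in favour of LA and 1 in favour of RA had a limma p below 0.05, against 10.9% of all probes.

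The genes whose pattern over the 16 arrays was most like that of Ckmt1, after removing the mean of each dataset, were Gng13 (Pearson r = 0.928), Acvr1 (0.927), Rfx2 (0.921), Gpr182 (0.916) and Lyve1 (0.881), all higher in RA in both datasets. Gng13 is a G protein gamma subunit and Lyve1 a hyaluronan receptor of lymphatic endothelium. For Ckmt2 they were Slc6a2 (0.927), Wwp1 (0.926), Tnfaip2 (0.922), Mrpl18 (0.907) and Chn2 (0.906), all higher in LA in both datasets. Slc6a2 is the noradrenaline transporter and Mrpl18 a protein of the mitochondrial ribosome. These values are carried largely by the shared side difference and by the shared arrays, and are a description.

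With the mean of each of the 4 groups removed instead, other genes came first. For Ckmt1 they were Syt7 (0.896), Sh3bp5l (0.843), Mei4 (0.834), Spesp1 (0.831) and Rpp30 (0.826), and for Ckmt2 Coq6 (0.90), Ggcx (0.90), Csnk1g1 (0.877), Syngr2 (0.876) and Hmga2 (0.861). Of 25697 probes 10 had r above 0.8 and 6 below -0.8 with Ckmt1, and 36 and 24 did so with Ckmt2. Coq6 is an enzyme of coenzyme Q synthesis in mitochondria. Between the members themselves, the correlations of these deviations over 27 pairs of probes of different genes ran over -0.65 (Ckmt1 and Gatm) to 0.29 (Ckb and Gatm).

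Finally, the nearest genes with a named probe on either side of Ckmt1 and Ckmt2 on their chromosomes were read. Genes without a named probe were passed over, so that those read need not be the adjacent ones. Around Ckmt1, Tubgcp4, Trp53bp1, Strc and Catsper2 had differences between -0.10 and 0.13 over both datasets. Around Ckmt2, Acot12, Zcchc9, Rasgrf2 and Msh3 had differences between -0.08 and 0.07. None of these 10 probes met the criterion in either dataset (adjusted p of 0.511 or more), whereas Ckmt1 and Ckmt2 between them had differences between -0.86 and 1.20.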

How the data were processed

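Total RNA of left (LA) and right (RA) atria of 4 MF1 and 4 Swiss Agouti mice was hybridised on 16 MouseRef-8 v2.0 arrays. The authors extracted signals with Genome Studio 2009.1 and, in GeneSpring GX 11.0, applied quantile normalization per dataset and a baseline to the median of all samples. These deposited log2 values were taken without further scaling. Whether the baseline spans 1 dataset or more is not known. It leaves differences within a dataset unchanged and removes levels. A table of signals before normalization was not used, because the names of its 16 signal columns do not say which sample each holds. Arrays have no read depth, and their number limits the precision.

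For each dataset the contrast of LA minus RA was fitted over 25697 probes in R 4.3.3 using limma 3.58.1 (lmFit, then eBayes), unfiltered and without a block, and p-values were adjusted by Benjamini-Hochberg. The criterion, a fold over 1.5 together with an adjusted p below 0.05, follows the study's methods. The difference between datasets was fitted on 16 arrays as 4 groups. Same-numbered LA and RA arrays deviated together in MF1_12 (correlation over probes 0.23 to 0.499, other numbers -0.286 to 0.02, all 4 highest with their own number) and not in SA_12 (-0.112 to 0.138, other numbers up to 0.33). The pairing in MF1_12 comes from these correlations, since the labels give only the numbers.

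Probes were named through the platform annotation (23978 named, 1719 unnamed). All probes of the 7 genes were named, up to 4 passing probes of each of 5 pathway lists, and the 5 most correlated genes of Ckmt1 and of Ckmt2 under each of 2 centrings. Bmp10 served as a check of side. Members and lists were chosen with earlier results of these data known. Other list genes, the cell type markers and the chromosomal neighbours given with values were chosen after their values were seen, as examples. The fits were tested on simulated data with known changes. Alternatives were the replicate block, ordinary variance, the adjusted p alone, array weights, all 16 arrays in one fit and leaving out each array.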

Additional observations from a re-analysis of the deposited data

Results flagged for a closer look

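In 3 of the 32 groups of 4 arrays (8 probes in 4 groups) 1 array stood apart from the others by Dixon's criterion at the 95% level (the gap to the nearest array over the range). Chance alone gives about 1 such group in 20. The Ckmt2 probe ILMN_2817864 had -1.08 in SA_12 RA replicate 1, against -0.70, -0.70 and -0.66 in the other RA arrays, and the other Ckmt2 probe was lowest on the same array. Gatm had 0.15 in MF1_12 RA replicate 1, where the other RA arrays lay at -0.0049 to -0.035. Gamt had 0.20 in MF1_12 LA replicate 3, where the other LA arrays lay at -0.024 to -0.057.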

How the results depend on the processing

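In MF1_12, 0 of 8 creatine probes met the criterion without a block, where 0.790% of all probes did. With the replicate block 2 did (Ckmt1 and ILMN_2817864 of Ckmt2), where 1.14% of all probes did. With all 16 arrays in one fit there were 2 (1.16% of all probes), and with array weights 1 (ILMN_2817864, 0.969%). When 1 array was left out there were 0 to 1, against 0.455% to 1.12% of all probes. Without LA replicate 2 or RA replicate 1 it was ILMN_2817864, and without RA replicate 2 it was Ckmt1. The difference of ILMN_2817864 was 0.62 with the block and in the fit of 16 arrays, 0.67 with array weights and 0.54 to 0.75 over the arrays left out. That of Ckmt1 was -0.86 with the block and in the fit of 16 arrays, and -1.01 to -0.71 over the arrays left out. LA replicate 2 had the largest deviations of its group. A block without this replicate number, chosen after seeing the data, gave 2 probes, with 0.62 for ILMN_2817864 and -0.97 for Ckmt1, and 1.52% of all probes.

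In SA_12, 2 of 8 met it (both Ckmt2 probes), where 0.630% of all probes did. Without any 1 array there were also 2, against 0.521% to 0.763% of all probes. With the replicate block there were 3 (0.642% of all probes). Ckmt1 was added there at -0.67, although no pairing by number was seen in SA_12. With ordinary variance 1 was left (0.144% of all probes), and ILMN_2698052 was lost at 1.19. Over the arrays left out the SA_12 differences were 1.09 to 1.28 for ILMN_2698052, 1.11 to 1.24 for ILMN_2817864 and -0.77 to -0.48 for Ckmt1. Of the list probes in MF1_12 2 met the criterion, 0 with ordinary variance (0.198% of all probes), 0 in the fit of 16 arrays and 1 to 3 over the arrays left out. In SA_12 0 did, and 1 (Aldoa) by the adjusted p alone, which 2.02% of all probes met. For the difference between datasets 0 of 8 passed under every alternative run, the replicate block included. The other 5 genes met the criterion under no alternative run, and near-zero differences of Ckm, Gamt and Slc6a8 in MF1_12 and of Gatm in SA_12 changed sign in 4, 3, 1 and 3 of the fits. The cause of these changes was not tested. Centred values give no signal over background, so that dim probes could not be set apart, and 4 arrays a side limit the precision.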
